A study of Bos taurus with 6 samples.

Results

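The anaphase-promoting complex (APC/C) is the ubiquitin ligase that takes a cell out of metaphase, and the genes described here are those that switch it on and off and the pair it acts on to part chromosomes. They are the activators CDC20 and FZR1 (CDH1), the inhibitors FBXO5 (EMI1) and FBXO43 (EMI2), securin (PTTG1) and separase (ESPL1), and the ubiquitin-conjugating enzymes UBE2C and UBE2S. They were chosen by symbol, with no measured value in the rule, though earlier results of these data were known. Of the 20707 gene rows of the expression table, 9 carried 7 of these 8 symbols, because PTTG1 stands on 3 rows. ESPL1 stands on none, since the row of the separase gene has no symbol in that table. Its row was identified by the name ESPL1 in the deposited annotation, and it is described apart from the 9.

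The study measured RNA in single oocytes of cattle (Bos taurus) by sequencing, 1 oocyte to a library. MII oocytes, at the metaphase of the second meiotic division, had been matured in vitro for 24 h and are the libraries MII14c, MII15 and MII15c. GV oocytes, held in prophase with an intact germinal vesicle, were taken when the follicles were aspirated and are the libraries GV14, GV14c and GV15. All came from ovaries of slaughtered cattle, as cumulus-oocyte complexes, and no treatment other than the maturation separates the stages. Stage was read from the Stage label, because a second label calls every sample matured in vitro.

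APC/C joins ubiquitin to cyclin B and securin so that both are destroyed. Securin holds separase in check, and separase, once free, cuts the cohesin rings that keep chromosomes together. In mouse oocytes the CDH1 form of the complex is known to help hold the GV arrest, the CDC20 form drives the first anaphase, and EMI2 blocks the complex to hold the egg at metaphase II until the sperm arrives. UBE2C starts the ubiquitin chains on APC/C targets and UBE2S lengthens them.

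Depth, recovered from the low values of the table, was 21.27 to 32.55 M reads in the MII libraries and 20.21 to 29.92 M reads in the GV libraries. Values are RPKM, reads per kilobase of gene model per M mapped reads, which allows for the length of the model when genes are compared. They are shares of a library, since no spike-in is part of them. The kit used primes cDNA on poly(A) tails, so the amount of an mRNA and the length of its tail cannot be told apart in these values. The columns GV14c and MII15c match no sample title, so they were used by the stage in their names alone, and results that need them are given without them too. The adapters were diluted 1 in 50 for MII14c and MII15, and 1 in 30 and 1 in 10 for GV14 and GV15, so the effect of the dilution cannot be told apart from that of stage. All 10 oocyte markers checked, among them GDF9 and ZP2, averaged at least 1 RPKM, and their summed level was 2371 to 3245 RPKM in MII libraries and 5285 to 8257 RPKM in GV libraries. Of 12 markers of cumulus and granulosa cells, 10 had a row and 3 averaged at least 1 RPKM, with sums of 100.6 to 106.6 RPKM in MII and 88.83 to 160.4 RPKM in GV libraries. Another 5 of them, AMH, CYP19A1, FSHR, PTX3 and TNFAIP6, stayed under 0.5 RPKM in every library, PTX3 at 0. HSD3B1 reached 2.018 RPKM in MII15 and INHBA reached 3.61 RPKM in GV15, though both averaged less than 1 RPKM. Within these markers HAS2 was higher in all 3 MII libraries and STAR was lower in all 3, and the part of either in the results below was not tested.

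Both inhibitors, FBXO43 and FBXO5, and securin with 1 of its copies had higher RPKM in MII libraries than in GV libraries. The factors were 3.22, 1.62, 1.83 and 2.29 in the mean of RPKM + 1 taken on the log2 scale. FZR1, the low activator, was too scarce to be tested. It had smaller values in every MII library than in any GV library, which held for 32.1% of all tested genes. CDC20, separase, UBE2C and UBE2S overlapped between the stages.

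**Figure D1:**
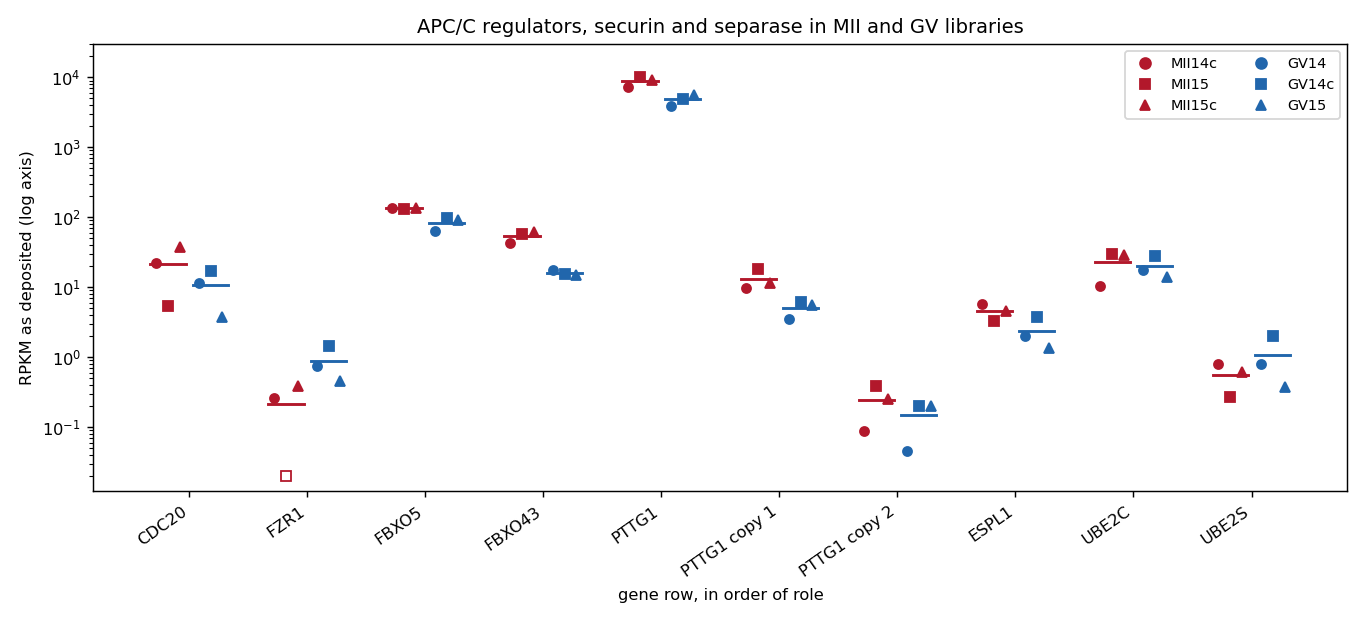
RPKM of each gene row on a log axis, with MII libraries in red on the left and GV libraries in blue on the right of each pair, 1 symbol per library and a bar at the mean of 3. FZR1 is listed at 0 in MII15 and drawn as an open square at the foot. The MII and GV points of FBXO5, FBXO43, PTTG1 and PTTG1 copy 1 do not overlap, and PTTG1 lies near the top of the axis, with means of 8804 RPKM in MII and 4825 RPKM in GV.

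Of the 9 rows with a member's symbol, 6 averaged at least 1 RPKM and were tested. The test was limma on log2(RPKM + 1), fitted to all 8671 genes past that level, with Benjamini-Hochberg adjustment over all of them, and a gene passed with an adjusted p under 0.05. Higher in MII were 4 of the 6, FBXO5, FBXO43, PTTG1 and PTTG1 copy 1, while 13.4% of all tested genes passed in that direction. Lower in MII were 0 of the 6 at the adjusted threshold and 0 at an unadjusted p under 0.05, and 26.9% of all tested genes passed in that direction. Every MII value lay above every GV value for the same 4 rows, which held for 19.8% of all tested genes, and every MII value lay below for none of the 6, which held for 32.1%. These counts leave out 3 rows under the level, FZR1, UBE2S and PTTG1 copy 2, and 2 of the 4 rows share the symbol PTTG1. Reads may have been split between those 2 rows, so they may not be separate results. Over all tested genes the log2 change had a median of -0.16. It came to -0.00 after median-ratio scaling and to 0.22 after quantile normalization, where 2133 genes were higher and 1777 lower in MII, against 1162 higher and 2329 lower as reported. Leaving out both untitled columns, or GV14 alone, or MII15c alone, left 1 row higher in MII, FBXO43.

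The activators were uneven between libraries of 1 stage. CDC20, the activator of anaphase and the target of the spindle checkpoint, lies on chromosome 3 at 103238258 to 103242373 on the minus strand, with 10 coding exons. It had 21.935, 5.46 and 37.458 RPKM in MII14c, MII15 and MII15c, against 11.446, 16.839 and 3.706 RPKM in GV14, GV14c and GV15. MII15 lay below 2 of the GV libraries, so the stages overlapped. The means were 21.6 ± 16 RPKM in MII and 10.7 ± 6.60 RPKM in GV (SD, n = 3 each). Its log2 change was 0.82 ± 0.67 (SE, limma adjusted p = 0.366), and it passed under 1 of 17 other settings, library weights, where the log2 change was 1.72. The end of its model overlaps ELOVL1 on the opposite strand by 46 nucleotides, and whether counting used strand is not given in the sources used here.

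FZR1, the activator of late mitosis and of G1, was scarce at both stages. It has 13 coding exons on chromosome 7, at 21613837 to 21631261 on the minus strand. MII14c, MII15 and MII15c had 0.263, 0 and 0.386 RPKM, against 0.748, 1.461 and 0.459 RPKM in GV14, GV14c and GV15. All 3 MII values lay under the lowest GV value, which held for 32.1% of all tested genes, with MII15c the closest to GV15. At its coding length those values stand for about 12, 0 and 19 reads in the MII libraries and 33, 58 and 14 reads in the GV libraries. The average over the 6 libraries was 0.553 RPKM, under the level for the test, and without that filter the log2 change was -0.61 ± 0.24 (limma adjusted p = 0.122). CDC20 thus stood above FZR1 in every library, 83.4 and 97 times in MII14c and MII15c, and 15.3, 11.5 and 8.07 times in GV14, GV14c and GV15, with no ratio for MII15.

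FBXO43 gave the clearest change of the set. It encodes EMI2, the inhibitor that holds APC/C in the egg, from 6 coding exons on chromosome 14, at 66422896 to 66434883 on the plus strand. MII14c, MII15 and MII15c had 43.062, 57.068 and 61.204 RPKM, against 17.499, 15.179 and 14.967 RPKM in GV14, GV14c and GV15. The lowest MII library had more than 2 times the highest GV library's value, and the GV libraries lay close together. Means were 53.8 ± 9.51 RPKM in MII and 15.9 ± 1.40 RPKM in GV (SD, n = 3 each). The log2 change was 1.69 ± 0.23 (SE, limma adjusted p = 0.000718). It passed under all 17 other settings, with log2 changes of 1.56 to 1.92 and adjusted p-values of 7.5e-06 to 0.0189. By level it ranked 1004 to 1470 of 20707 rows in MII libraries and 2943 to 3328 in GV libraries. The annotation adds 3 predicted transcripts from the authors' reads, which start up to 881 nucleotides upstream of the gene model and keep its 3′ end.

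FBXO5, which encodes EMI1, the relative of EMI2 known from the somatic cell cycle and from mouse oocytes entering meiosis, had higher RPKM than FBXO43. It lies on chromosome 9 at 91056937 to 91067416 on the minus strand, with 4 coding exons. In MII14c, MII15 and MII15c it had 136.921, 129.381 and 135.957 RPKM, against 64.339, 96.024 and 91.174 RPKM in GV14, GV14c and GV15. The MII libraries differed little among themselves, and all were above the highest GV library. Means were 134 ± 4.10 RPKM in MII and 83.8 ± 17.1 RPKM in GV (SD, n = 3 each). The log2 change of 0.69 ± 0.22 passed the test (limma adjusted p = 0.0313) and passed under 11 of 17 other settings, with adjusted p-values of 0.000603 to 0.114. The call was lost without GV14 (limma adjusted p = 0.114), GV15 (0.0551), MII14c (0.0721) or MII15c (0.0995), and without both untitled columns (0.103), with the direction kept. Its gene model ends 2 nucleotides past the stop codon, and 4 predicted transcripts run up to 29175 nucleotides further upstream than the model.

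Set against each other within a library, FBXO43 had 0.315, 0.441 and 0.45 times the RPKM of FBXO5 in MII14c, MII15 and MII15c, and 0.272, 0.158 and 0.164 times in GV14, GV14c and GV15. FBXO5 was therefore the higher of the pair by RPKM in every library, by less in each MII library. The gene models end 2 nucleotides past the stop codon for FBXO5 and 248 for FBXO43, and the effect on the ratio was not tested. The log2 ratio of (RPKM + 1) averaged -1.32 ± 0.29 in MII and -2.31 ± 0.43 in GV (SD, n = 3 each). The difference of 0.99 had p = 0.1 in an exact two-sided permutation test, the smallest p that 3 against 3 can give, and 0.4 after adjustment over 4 ratios. Without both untitled columns the difference was 0.77.

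Securin was one of the most abundant transcripts in the table. PTTG1 ranked the third of 20707 rows in each MII library and between 5 and 8 in the GV libraries. Its gene is on chromosome 7, at 74119595 to 74127723 on the plus strand, with 5 coding exons that hold 609 nucleotides of coding sequence. MII14c, MII15 and MII15c had 7231.897, 10116.319 and 9064.808 RPKM, against 3891.681, 4928.797 and 5654.779 RPKM in GV14, GV14c and GV15. The lowest MII library was above the highest GV library. Means were 8804 ± 1460 RPKM in MII and 4825 ± 886 RPKM in GV (SD, n = 3 each). A log2 change of 0.87 ± 0.24 passed the test (limma adjusted p = 0.0201), and it did so under 11 of 17 other settings, with log2 changes of 0.72 to 1.09 and adjusted p-values of 0.000451 to 0.198. It was lost without GV14 (limma adjusted p = 0.0783), MII15 (0.0537) or MII15c (0.0826), without both untitled columns (0.163), after median-ratio scaling (0.0649) and without the filter on level (0.198). All 20 predicted transcripts of the gene share 1 3′ end, so the deposited annotation holds no second 3′ end for this mRNA.

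The symbol PTTG1 also stands on 2 rows whose coding sequence has the same length, 609 nucleotides, in 1 exon. Their sequences were not analysed here, and how the authors treated reads that match more than 1 place is not given in the sources used here, so reads may have been split among the 3 rows. Both rows are uncertain for that reason. Copy 1 lies on chromosome 7 at 29648192 to 29648949 on the minus strand, far from the gene itself. It had 9.711, 18.051 and 11.348 RPKM in MII14c, MII15 and MII15c, against 3.528, 6.177 and 5.481 RPKM in GV14, GV14c and GV15. As whole reads these are 229, 291 and 280 in the MII libraries and 80, 126 and 84 in the GV libraries. Each MII library was above all GV libraries. The log2 change was 1.19 ± 0.33 (limma adjusted p = 0.0192), and it passed under 14 of 17 other settings, but not without GV14 (0.0791), without MII15c (0.0534) or without both untitled columns (0.0744).

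Measured as a share of PTTG1 in the same library, copy 1 was 0.134%, 0.178% and 0.125% in MII14c, MII15 and MII15c, and 0.0907%, 0.125% and 0.0969% in GV14, GV14c and GV15. The shares of the stages met at 0.125%, in MII15c and GV14c, and the other MII shares lay above the other GV shares. Copy 2, on chromosome 10 at 93309176 to 93309906 on the plus strand, lies wholly within CEP128, which is on the opposite strand. Its values were 0.088, 0.386 and 0.252 RPKM in MII14c, MII15 and MII15c, against 0.046, 0.203 and 0.203 RPKM in GV14, GV14c and GV15. They amount to 2, 6 and 6 reads in MII and 1, 4 and 3 reads in GV libraries, too few for a test, and at most 0.00412% of PTTG1 in any library.

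**Figure D2:**
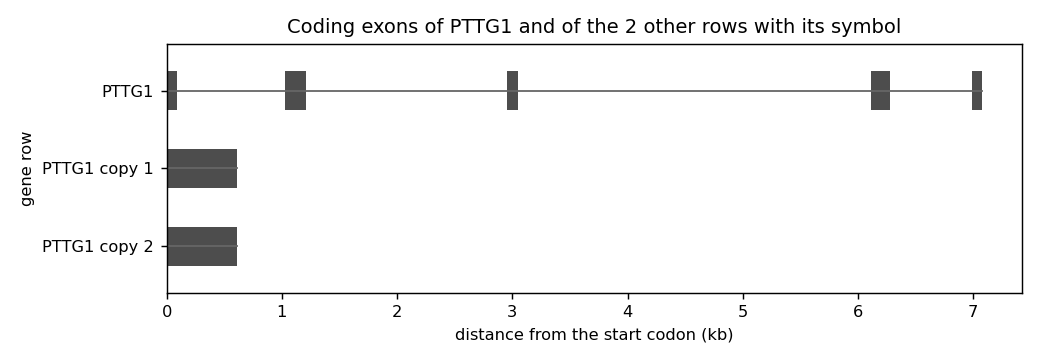
Coding exons of PTTG1 and of the other 2 rows with its symbol, as boxes along the distance from the start codon in kilobases, with introns as lines. PTTG1 has 5 coding exons over 7073 nucleotides, and each copy has a single coding exon of 609 nucleotides.

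Separase, the protease that securin restrains, was expressed at a few RPKM. ESPL1 lies on chromosome 5 at 26891656 to 26913470 on the minus strand, with 31 coding exons and 6330 coding nucleotides. It had 5.707, 3.306 and 4.631 RPKM in MII14c, MII15 and MII15c, against 2.022, 3.793 and 1.339 RPKM in GV14, GV14c and GV15. GV14c exceeded MII15, so the stages overlapped. Means were 4.55 ± 1.2 RPKM in MII and 2.39 ± 1.27 RPKM in GV (SD, n = 3 each), and the log2 change of 0.75 ± 0.37 did not pass (limma adjusted p = 0.131). It passed under 3 of 16 other settings, median-ratio scaling (0.92, adjusted p = 0.039), quantile normalization (1.21, 0.00965) and library weights (0.91, 0.00597).

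Securin thus stood above separase by 1270, 3060 and 1960 times in MII14c, MII15 and MII15c, and by 1920, 1300 and 4220 times in GV14, GV14c and GV15. The highest ratio was in a GV library and the lowest in an MII library. On the log2 scale the ratio averaged 10.64 ± 0.56 in MII and 10.53 ± 0.64 in GV (SD, n = 3 each), a difference of 0.12 (exact two-sided permutation test, p = 0.8, adjusted 0.8). Its sign turned with a pseudocount of 0.1 (-0.12), without GV14c (-0.14), without MII15 (-0.16) and without both untitled columns (-0.15).

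The ubiquitin-conjugating enzymes differed from each other far more than between stages. UBE2C, which starts the chain, lies on chromosome 13 at 75306757 to 75310190 on the plus strand. It had 10.411, 30.17 and 28.412 RPKM in MII14c, MII15 and MII15c, against 17.618, 28.055 and 14.009 RPKM in GV14, GV14c and GV15. Both the highest and the lowest value were in MII libraries. Means were 23 ± 10.9 RPKM in MII and 19.9 ± 7.29 RPKM in GV (SD, n = 3 each), with a log2 change of 0.12 ± 0.42 (limma adjusted p = 0.837). No other setting of the 17 brought it past the threshold, and its sign turned without GV15 (-0.09), MII15 (-0.13) or MII15c (-0.09).

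UBE2S, which extends the chain, lies on chromosome 18 at 62537351 to 62541236 on the plus strand. It had 0.8, 0.27 and 0.617 RPKM in MII14c, MII15 and MII15c, against 0.8, 2.027 and 0.379 RPKM in GV14, GV14c and GV15. MII14c and GV14 shared 1 value, and GV14c stood above the rest. As reads these are 26, 6 and 21 in MII libraries and 25, 57 and 8 in GV libraries. It averaged 0.816 RPKM over the 6 libraries and was not tested, and without the filter its log2 change was -0.34 (limma adjusted p = 0.522). The ratio of UBE2S to UBE2C on the log2 scale averaged -3.82 ± 1.03 in MII and -3.36 ± 0.09 in GV (SD, n = 3 each), a difference of -0.46 (exact two-sided permutation test, p = 0.4, adjusted 0.533). The ratio of CDC20 to FZR1 averaged 3.89 ± 1.08 in MII and 2.46 ± 0.67 in GV on that scale, a difference of 1.43 (exact two-sided permutation test, p = 0.3, adjusted 0.533). FZR1 is below the pseudocount in most libraries, and the difference was 1.78 with a pseudocount of 0.5 and 2.67 with 0.1, where the stages did not overlap (exact permutation p = 0.1 each, the smallest that 3 against 3 can give). Leaving out 1 library gave 0.98 (without MII15c) to 2.03 (without MII15) for CDC20 to FZR1, and -1.04 (without MII14c) to -0.07 (without MII15) for UBE2S to UBE2C. Without both untitled columns the difference was 1.18 for CDC20 to FZR1 and -0.23 for UBE2S to UBE2C.

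**Figure D3:**
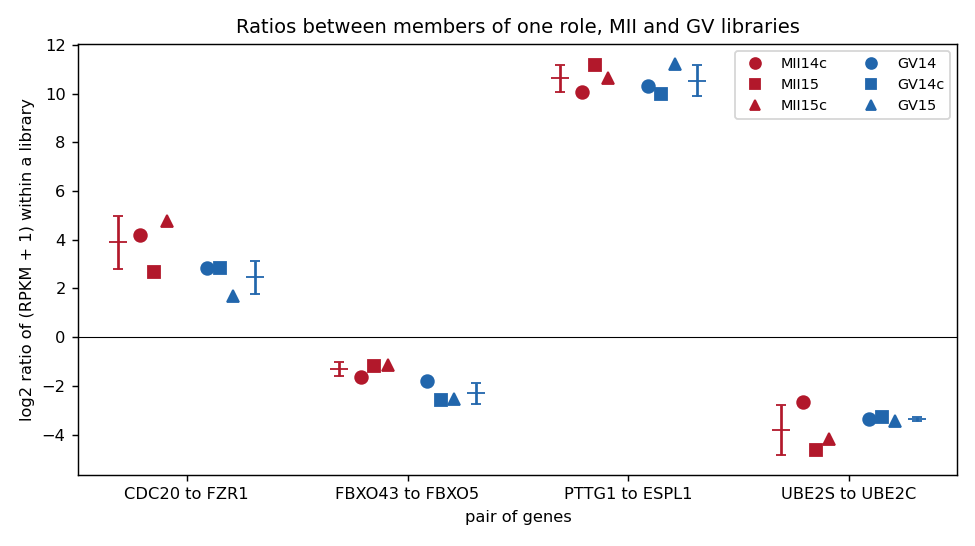
Log2 ratio of (RPKM + 1) within each library for 4 pairs of genes, MII libraries in red left of GV libraries in blue, with the mean and SD of 3 beside the points. With this pseudocount of 1, only the FBXO43 to FBXO5 points are apart by stage, at -1.65 to -1.14 in MII and -2.58 to -1.82 in GV, and the CDC20 to FZR1 points are apart with the smaller pseudocounts of 0.5 and 0.1.

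Libraries of 1 stage ordered several members alike. CDC20, FZR1, ESPL1, UBE2C and UBE2S were each highest in GV14c and lowest in GV15 among the GV libraries, an order that 30.6% of all tested genes share. Among the MII libraries CDC20, FZR1, FBXO5, ESPL1 and UBE2S were each lowest in MII15, where PTTG1, its copy 1 and UBE2C were highest, and 56.9% of all tested genes were lowest in MII15 too. Both orders were thus common among all tested genes. Over the 6 libraries, the named tested genes whose log2(RPKM + 1) followed FBXO43 most closely by Pearson's r were PROSER1 (0.998), NUDT18 (0.998) and TMED7 (0.996). PIGY (0.997), NSMCE4A (0.997) and CETN2 (0.995) followed PTTG1, and POC1B (0.994) and IQCG (0.990) followed FBXO5. For copy 1 the named genes were SNRPG (0.997) and KLHL7 (0.993), beside 1 gene with no symbol. For CDC20 they were PDCD6IP (0.989) and HIST1H1E (0.988). TNRC6B (0.999) and RCHY1 (0.996) followed ESPL1, beside 1 gene with no symbol, and CXCR4 (0.976), RAB13 (0.967) and SOX2 (0.958) followed UBE2C. These are among the closest of 8671 profiles over 6 points that share libraries and stages, and they are given as a description.

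Core subunits of the complex passed in both directions. Here and below, rose and fell mean a higher or a lower RPKM, a share of the library, in MII than in GV. Of 13 core subunits with a row, 12 were tested, of which 2 rose and 4 fell while 6 missed the threshold. Both counts are near the shares over all tested genes, 13.4% higher and 26.9% lower. Their median log2 change was 0.02, beside -0.16 for all tested genes. ANAPC13, a small subunit, had 20.788, 20.789 and 15.563 RPKM in MII14c, MII15 and MII15c, against 131.034, 143.634 and 150.635 RPKM in GV14, GV14c and GV15 (log2 change -2.84 ± 0.21, limma adjusted p = 3.16e-05). ANAPC10, which helps bind substrates, averaged 43.3 ± 3.52 RPKM in MII and 124 ± 17.3 RPKM in GV (-1.49 ± 0.20, 0.000701). ANAPC16 averaged 17.2 ± 5.27 RPKM in MII and 41.8 ± 5.52 RPKM in GV (-1.26 ± 0.27, 0.00582). The other subunit that fell, ANAPC5, is named after its values were seen (-0.97 ± 0.34, 0.0454). CDC27, the subunit that receives the activators, averaged 138 ± 18.3 RPKM in MII and 61.4 ± 8.05 RPKM in GV (1.16 ± 0.21, 0.00269), and ANAPC4, a platform subunit, 20.7 ± 1.31 RPKM in MII and 11.1 ± 0.845 RPKM in GV (0.84 ± 0.23, 0.0194). CDC27, ANAPC10, ANAPC13 and ANAPC16 passed under all 17 other settings. ANAPC4 did not pass without GV14 (limma adjusted p = 0.0539), GV15 (0.0516), MII15c (0.081) or both untitled columns (0.16). ANAPC5 passed under 7 of 17, and missed without GV14 (0.136), GV14c (0.129), MII15 (0.0866) or MII15c (0.161). Without GV15 or MII15c, 1 core subunit rose.

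In the spindle checkpoint, which holds CDC20 until chromosomes are attached, 7 of 8 genes were tested, and 2 of them rose, 1 fell and 4 missed the threshold (median log2 change 0.40), with 13.4% higher and 26.9% lower among all tested genes. MAD2L1 (MAD2) averaged 485 ± 91.9 RPKM in MII and 234 ± 33.9 RPKM in GV (1.04 ± 0.22, limma adjusted p = 0.00523). BUB1B (BUBR1), which joins MAD2 on CDC20, averaged 88.7 ± 11.4 RPKM in MII and 43.9 ± 0.805 RPKM in GV (0.99 ± 0.20, 0.00471). Their partner BUB3 fell to 152 ± 30.7 RPKM in MII, against 361 ± 63.0 RPKM in GV (-1.24 ± 0.23, 0.00308). MAD2L1 and BUB3 passed under all 17 other settings, and BUB1B under 16, the exception being without both untitled columns (0.0617). Without GV14c, 2 genes of this list fell.

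Of 22 APC/C substrates, 21 were tested, and 8 of those rose, 3 fell and 10 missed the threshold (median log2 change 0.77), where 13.4% of all tested genes were higher and 26.9% lower. Among the 8, SKP2, an F-box protein of the SCF ligase, had the smallest p, averaging 42.9 ± 6.20 RPKM in MII and 10.4 ± 3.22 RPKM in GV (1.97 ± 0.27, limma adjusted p = 0.000737). Cyclin B1 (CCNB1), which APC/C removes at anaphase, averaged 1418 ± 159 RPKM in MII and 592 ± 77.4 RPKM in GV (1.26 ± 0.20, 0.00145). Cyclin A2 (CCNA2) averaged 110 ± 25.6 RPKM in MII and 42.7 ± 6.65 RPKM in GV (1.33 ± 0.25, 0.00303). These symbols stand on 5, 3 and 2 rows, and the most abundant row of each was used. Cyclin B2 (CCNB2) moved the other way, with 282 ± 55.0 RPKM in MII and 570 ± 47.9 RPKM in GV (-1.03 ± 0.21, 0.00508). CDC6, which licenses replication origins, averaged 37.1 ± 11 RPKM in MII and 73.5 ± 11.9 RPKM in GV (-0.99 ± 0.26, 0.0143). The kinase PLK1 averaged 0.99 ± 0.378 RPKM in MII and 3.37 ± 0.956 RPKM in GV (-1.13 ± 0.33, 0.0235). It reached the level of 1 RPKM for the test through its GV values. SKP2, CCNB1 and CCNA2 passed under all 17 other settings. CCNB2 missed after median-ratio scaling (0.056) and without both untitled columns (0.0633). CDC6 missed without GV15 (0.0558) or MII15c (0.0637), and PLK1 without GV14 (0.0834), GV14c (0.0633), MII15 (0.0505) or MII15c (0.0569). PLK1 passed under 9 of 16 other settings, and also missed without the filter on level (limma adjusted p = 0.0669) and after quantile normalization (0.0916). Without MII15c, 1 substrate fell, and without both untitled columns none did.

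Cohesin, which separase cuts, and its guards had 11 genes with a row, of which 7 were tested. Of these, 4 rose, 0 fell, also at an unadjusted p under 0.05, and 3 missed the threshold (median log2 change 0.85). Over all tested genes the shares were 13.4% higher and 26.9% lower. STAG1 averaged 21.9 ± 5 RPKM in MII and 5.2 ± 0.875 RPKM in GV (1.87 ± 0.28, limma adjusted p = 0.0011). The ring subunit SMC3 averaged 245 ± 26.4 RPKM in MII and 104 ± 5.63 RPKM in GV (1.23 ± 0.19, 0.00123). RAD21, the cohesin subunit that separase cuts in mitosis, averaged 101 ± 17.2 RPKM in MII and 36.7 ± 7.06 RPKM in GV (1.44 ± 0.24, 0.00164). SGOL2, the shugoshin that protects cohesin at centromeres, is the other one that rose and is named after its values were seen (0.85 ± 0.22, 0.0132). STAG1, SMC3 and RAD21 passed under all 17 other settings, and SGOL2 under 16, the exception being without both untitled columns (0.113). REC8, the meiotic counterpart of RAD21, was among the 4 genes under the level for the test, with RAD21L1, STAG2 and STAG3.

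Among genes that act on EMI1, EMI2 or CDH1, 14 of 18 with a row were tested, and 4 of them rose, 2 fell and 8 missed the threshold (median log2 change -0.15), beside 13.4% higher, 26.9% lower and a median of -0.16 over all tested genes. MAP2K1, a kinase of the MOS pathway, which acts on EMI2 in frog eggs, averaged 130 ± 11.5 RPKM in MII and 63.4 ± 10.3 RPKM in GV (1.03 ± 0.21, limma adjusted p = 0.00475). CDC14B, a phosphatase that acts on CDH1 in human cells, averaged 6.23 ± 0.79 RPKM in MII and 1.89 ± 0.19 RPKM in GV (1.32 ± 0.29, 0.00653). CUL1, the scaffold of the SCF ligase, averaged 1976 ± 205 RPKM in MII and 951 ± 267 RPKM in GV (1.09 ± 0.26, 0.00892). SKP1, its adaptor, is named after its values were seen (0.65 ± 0.22, 0.0398). The symbols MAP2K1, CUL1 and SKP1 stand on 2, 2 and 4 rows, and the most abundant row of each was used. BTRC, the F-box protein that marks EMI1 for destruction, fell with PLK1, which primes EMI1 for it, and averaged 9.27 ± 2.90 RPKM in MII and 16.7 ± 1.83 RPKM in GV (-0.82 ± 0.29, 0.0484). MAP2K1 and CUL1 passed under 16 of 17 other settings and CDC14B under 15 of 16, each missing without both untitled columns. SKP1 passed under 8 of 17, and missed without GV14 (0.127), GV14c (0.0806), GV15 (0.0556), MII15 (0.0915) or MII15c (0.142). BTRC passed under 5 of 17 and missed without GV15 (0.114), among others. PLK1 passed under 9 of 16, and it was tested through its GV values, as given above. Neither fall passed without GV14, GV14c, MII15 or MII15c, where the count was 0, and 1 of them passed without GV15.

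Other ubiquitin-conjugating enzymes and deubiquitinases that work with or against APC/C gave 1 gene higher, 1 lower and 6 that missed the threshold among 8 tested of 9 (median log2 change 0.42), beside shares of 13.4% higher and 26.9% lower over all tested genes. USP37, a deubiquitinase that opposes the CDH1 form in human cells, averaged 22.9 ± 3.85 RPKM in MII and 11.2 ± 0.732 RPKM in GV (0.96 ± 0.25, limma adjusted p = 0.0133). UBE2D4 averaged 1.37 ± 0.903 RPKM in MII and 4.53 ± 0.483 RPKM in GV (-1.29 ± 0.35, 0.0185). USP37 missed without MII15c (0.0551), and UBE2D4 without GV14 (0.0572) or MII15c (0.0826). Without MII15c neither count was above 0, without GV14 the lower count was 0, and without MII15 the higher count was 2.

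**Figure D4:**
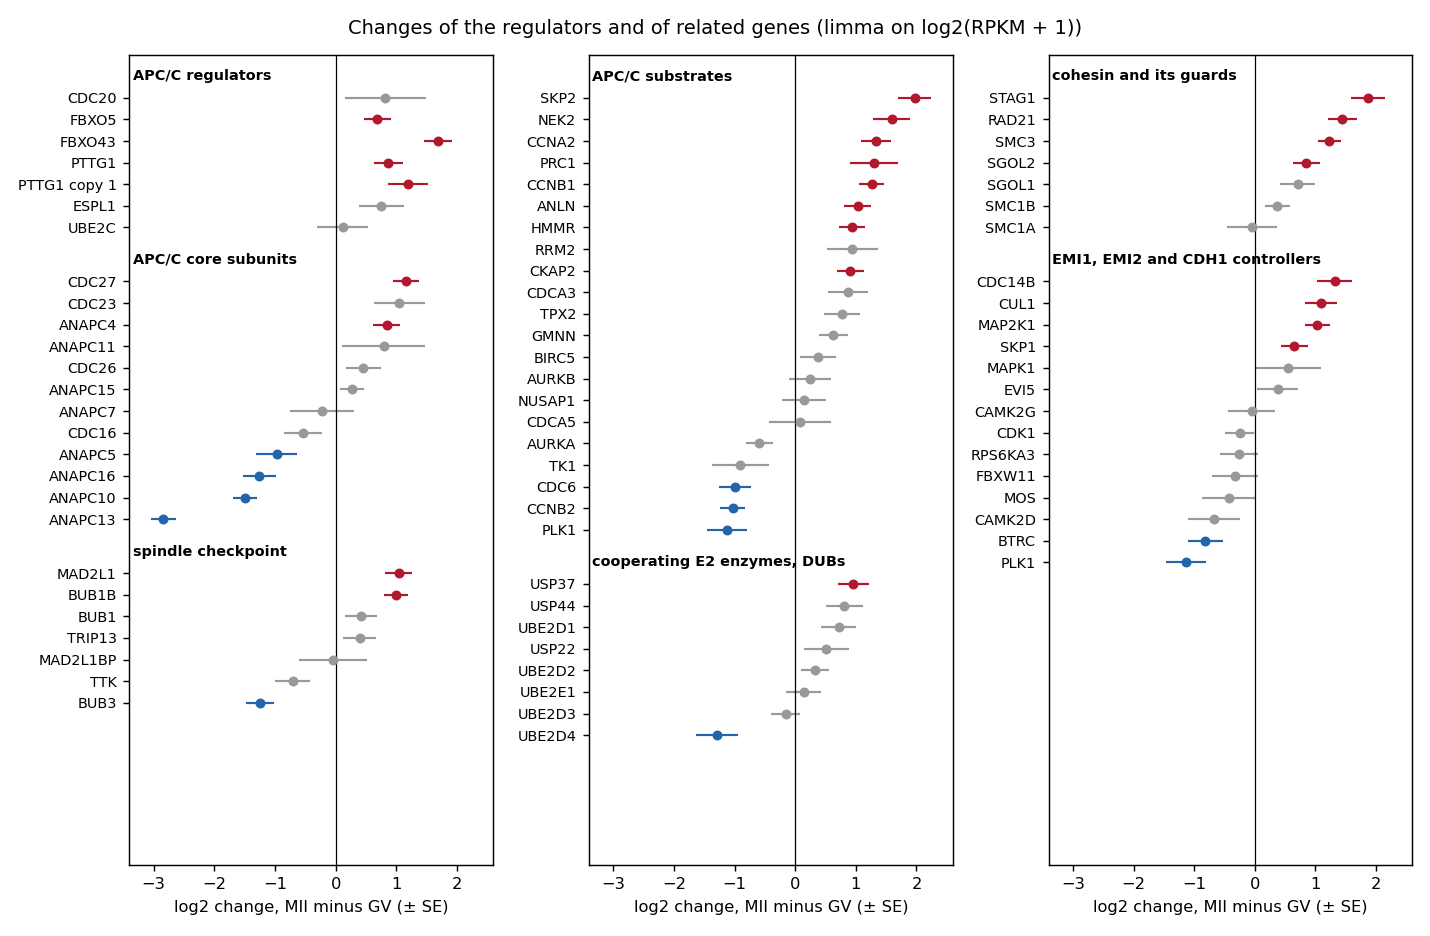
Log2 change, MII minus GV, with its SE for each tested member and each tested gene of the 6 related lists, from limma on 3 MII and 3 GV libraries. Red points passed as higher in MII, blue points passed as lower and grey points did not pass, from ANAPC13 at -2.84 to SKP2 at 1.97, with FBXO43 at 1.69.

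**Figure D5:**
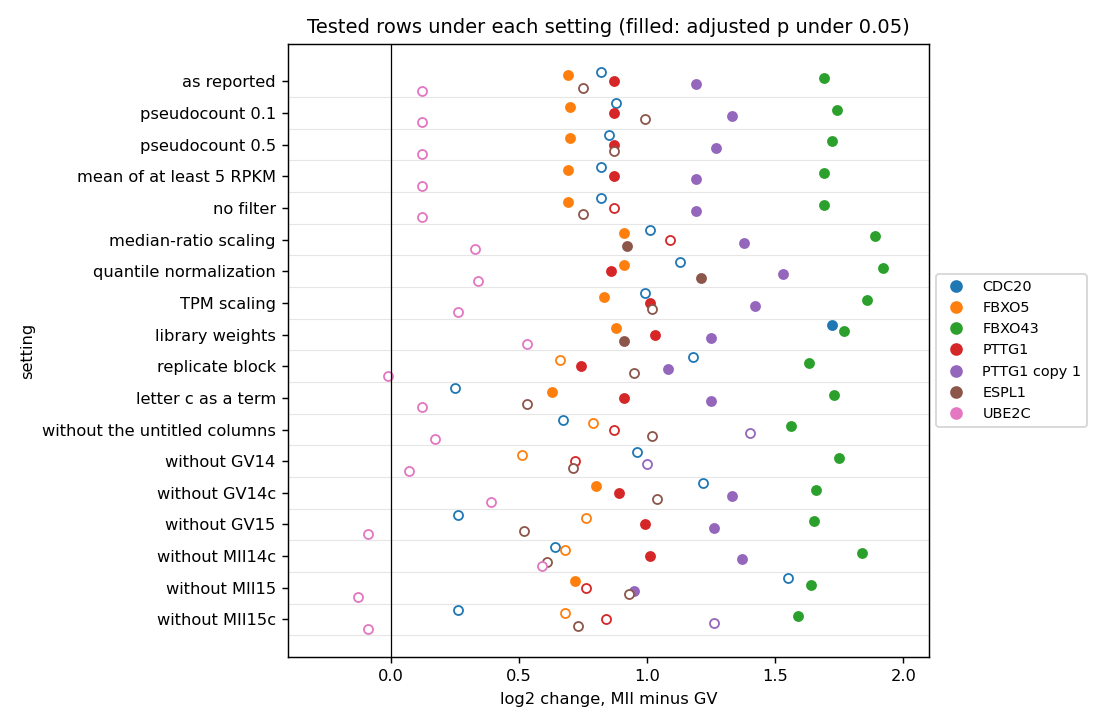
Log2 change, MII minus GV, of the 7 tested rows under the reported setting and 17 others, filled where the adjusted p was under 0.05 and open where it was not. FBXO43 is filled throughout at 1.56 to 1.92, and UBE2C is open throughout on both sides of 0.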

How the data were processed

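The authors deposited RPKM per Ensembl gene in 6 libraries of single oocytes, with a symbol per gene, and an annotation extended from their own reads that lists reads supporting each gene model, per the file headers. DESeq appears, without its role, in the submitters' processing notes. Aligner, read counter and genome build are not given in any source used here, so coordinates, counted from 1, are those of the deposited annotation. Of the 20707 genes, 417 had no usable symbol. The samples titled GV15c and MII14 match no column and were not analysed here.

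The 8 members and the 6 related gene lists were chosen with earlier results of these data known. Named are all rows of the members, of each list up to 3 passing genes of smallest p in each direction, and the 3 nearest profiles of each tested row, some of which are not reported here. Where a symbol of a list stood on several rows, the row with the highest mean was used. The RPKM values were tested as log2(RPKM + 1) by moderated linear models with a mean-variance trend (limma 3.58.1, R 4.3.3), MII minus GV, on the 8671 genes whose mean reached 1 RPKM. Adjusted p-values are Benjamini-Hochberg over those genes. The procedure was tested on simulated data. Fold changes are on the log2(RPKM + 1) scale and understate the change of low genes. Ratios of 2 genes used exact permutation tests over libraries.

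Depth was the number of reads that turned low RPKM of 3636 coding-only genes into whole reads, and 93.9% to 98.8% of those values came within 0.1 of a whole read. The reads were amplified and carry no molecular identifiers, so read numbers describe counting error only. Nothing says that the oocytes came from different animals, or whether the letter c marks a further oocyte or a repeat, so p-values reflect only how these libraries vary, which may be technical. The 17 alternatives cover pseudocounts of 0.1 and 0.5, a mean of at least 5 RPKM, no filter, 3 scalings, library weights, a replicate block, the letter c as a term, both untitled columns left out, and each library left out.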

Additional observations from a re-analysis of the deposited data

Results flagged for a closer look

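In the annotation, the single-exon row with the symbol PTTG1 on chromosome 10 carries a read support of 11938, none of it spliced, while the RPKM table gives that row 22 reads over the 6 libraries. It was singled out because that support lies in a column that no comparison used. For copy 1 on chromosome 7 the support is 885 with 0 spliced, beside 1090 reads in the RPKM table. For PTTG1 itself the support is 54383, of which 602 are spliced, beside about 668988 reads at its coding length in the RPKM table. How this support was counted is not given in the sources used here, and no explanation was tested.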

How the results depend on the processing

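With 3 libraries a stage, few reads for FZR1, UBE2S and PTTG1 copy 2, and no count of molecules, small changes of scarce transcripts were not detectable at this depth. Of the rows of the members higher in MII, 1 was higher without the untitled columns and 1 to 4 with each library left out. FBXO43 passed under every setting. The replicate block set GV14, GV14c and MII14c against GV15, MII15 and MII15c by name, but no label says that the names mark a batch. Over 8671 genes, deviations within the block correlated at 0.33 for MII14c with GV14c and 0.43 for MII15 with GV15. They correlated at -0.01 for MII14c with GV14 and -0.23 for MII15c with GV15. With the block the log2 change was 0.66 for FBXO5 (limma adjusted p = 0.058) and -0.01 for UBE2C, 1 controller was lower, and 1141 genes were higher and 2134 lower in all. Without the untitled columns the log2 changes were 0.79 for FBXO5, 0.87 for PTTG1 and 1.40 for its copy 1, none of which passed, and 352 genes were higher and 1280 lower in all. PTTG1 also did not pass without a filter (0.87) or after median-ratio scaling (1.09). CDC20 passed with library weights (1.72). ESPL1 passed after median-ratio scaling (0.92) and quantile normalization (1.21) and with library weights (0.91), and has no value at a mean of at least 5 RPKM. With each library left out in turn, the log2 changes ran from 0.26 to 1.55 for CDC20, 0.51 to 0.80 for FBXO5, 0.72 to 1.01 for PTTG1, 0.95 to 1.37 for copy 1, 0.52 to 1.04 for ESPL1 and -0.13 to 0.59 for UBE2C. The log2 ratio of PTTG1 to ESPL1 was -0.12 with a pseudocount of 0.1, -0.15 without the untitled columns and -0.16 to 0.47 with each library left out.

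Counts of list genes moved too. Core subunits higher in MII were 4 with the letter c as a term, 1 without the untitled columns and 1 to 2 with each library left out. Checkpoint genes higher were 1 without the untitled columns, and those lower were 2 with library weights and 1 to 2 with each library left out. Substrates higher were 13 with library weights and 5 without the untitled columns. Substrates lower were 5 with library weights, 5 with the letter c as a term, 0 without the untitled columns and 1 to 4 with each library left out. Controllers of EMI1, EMI2 and CDH1 higher were 0 without the untitled columns. Controllers lower were 1 with a pseudocount of 0.1, at a mean of at least 5 RPKM, with no filter, after median-ratio scaling and after TPM scaling, 0 after quantile normalization and without the untitled columns, and 0 to 2 with each library left out. Cooperating enzymes higher were 2 at a mean of at least 5 RPKM, 3 after median-ratio scaling, 4 after quantile normalization, 3 after TPM scaling, 3 with library weights, 2 with the letter c as a term, 0 without the untitled columns and 0 to 2 with each library left out. Cooperating enzymes lower were 0 at a mean of at least 5 RPKM, with no filter, after quantile normalization and without the untitled columns, and 0 to 1 with each library left out. The cause of these shifts was not tested.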
